A study of Mus musculus with 27 samples.

Results

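Hmga1, Hmga2, Igf2bp1, Igf2bp2, Igf2bp3 and Lin28b were followed as a group of growth regulators best known from fetal tissue. Members were chosen by gene symbol, with earlier results of these data known. They gave 6 of the 51906 genes in the bulk count table and 6 of the 32285 genes in each single-cell matrix. The study used mouse hair follicle stem cells (HFSCs), the epithelial stem cells of the follicle's bulge, and asked how retinoid signalling and the retinoid X receptor RXRA bear on their state. Bulk RNA-seq covered 8 libraries from HFSC lines that had been isolated from telogen back skin at postnatal day 55, established on mitomycin-inactivated feeder cells and then grown in 3D droplets. The 4 bulk groups were wild-type cells in fetal bovine serum (FBS), wild-type cells in all-trans retinoic acid plus a protein kinase C inhibitor (atRA+PKCi), and Rxra conditional knockout (cKO) cells in each of these media. Each group had 2 libraries, from mouse 1 and mouse 2 of that genotype. The atRA+PKCi medium held the supplement B-27 in place of serum, so serum and the added compounds changed together. The cKO cells carried Sox9-CreER, Rxra fl/fl and R26-YFP. CreER under Sox9 is active in bulge and outer root sheath cells, and YFP marks cells in which Cre has acted. Single-cell RNA-seq (scRNA-seq) covered anagen VI back skin at postnatal day 32 from 2 wild-type mice, sorted as CD45−CD31−CD140a−CD117− cells. CD34+ HFSCs of the same mice were also cultured, for 2 passages and then in 3D, in several hashtagged media.

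The members belong to 1 regulatory axis that is described in embryos and in many tumours. HMGA1 and HMGA2 are small architectural chromatin proteins that bind AT-rich DNA through AT-hooks. IGF2BP1, IGF2BP2 and IGF2BP3 bind mRNAs, Igf2 mRNA among them, and affect their stability, location and translation. LIN28B binds the precursors of let-7 microRNAs and blocks their maturation. Mature let-7 pairs through its seed with sites in the 3′ untranslated regions (UTRs) of mRNAs and lowers their output, and Hmga2, Lin28b and Igf2bp1 are textbook targets. Most members are high in fetal tissue and low in adult tissue, while Hmga1 also accompanies proliferation and Igf2bp2 is more widely expressed in adults.

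The let-7 sequences are shown because they are the letters that tie the members together. RefSeq gave 9 mature mouse miRNAs of the family that share 1 seed, bases 2 to 8, in capitals.
mmu-let-7a-5p: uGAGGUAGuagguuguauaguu
mmu-let-7b-5p: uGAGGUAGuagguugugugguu
mmu-let-7g-5p: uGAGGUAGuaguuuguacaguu
mmu-miR-98-5p: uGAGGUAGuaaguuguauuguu
The other 5 (let-7c, let-7d, let-7e, let-7f and let-7i) differed outside the seed. The reverse complement of the seed, CTACCTC, was searched on the transcribed strand of each gene's longest annotated 3′ UTR. Hmga2, Igf2bp1 and Lin28b held 4 matches each, and Hmga1, Igf2bp2 and Igf2bp3 held 1 each. Of 21020 coding genes, 9.02% held at least 1 match and 12 genes (0.0571%) held at least 4. UTR length enters these counts. Per kilobase the members ranged from 0.472 in Igf2bp3 to 1.33 in Hmga2. The mean was 0.0688 over the 10241 UTRs of at least 1000 bases, of which 15.2% held a match. Known let-7 targets are among the members chosen, so these counts describe the members and test nothing. A match describes letters only, and small RNAs were not analysed here.

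The first match of each member from the start of its UTR is printed below, 5′ to 3′ on the gene's strand, with the match in capitals and the position on build GRCm38. All lie in 3′ UTRs, on the minus strand except Hmga1.
Hmga1, chr17:27563277-27563301: tcctctgttcacaaaCTACCTCtgg
Hmga2, chr10:120364222-120364246: gccgacattcaatttCTACCTCagc
Igf2bp1, chr11:95961776-95961800: gctgtgcgaagtaaaCTACCTCaag
Igf2bp2, chr16:22059471-22059495: acacacaaataaaagCTACCTCagg
Igf2bp3, chr6:49086785-49086809: tgcatttttactcaaCTACCTCagg
Lin28b, chr10:45381020-45381044: acccgggcgggaagtCTACCTCatg
The other 3 Hmga2 matches started 1295, 1733 and 2591 bases into its 3014-base UTR. In Igf2bp1 the other 3 started at 4136, 4730 and 5353 of 6337 bases, and in Lin28b at 2410, 2582 and 3998 of 4445 bases.

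**Figure D1:**
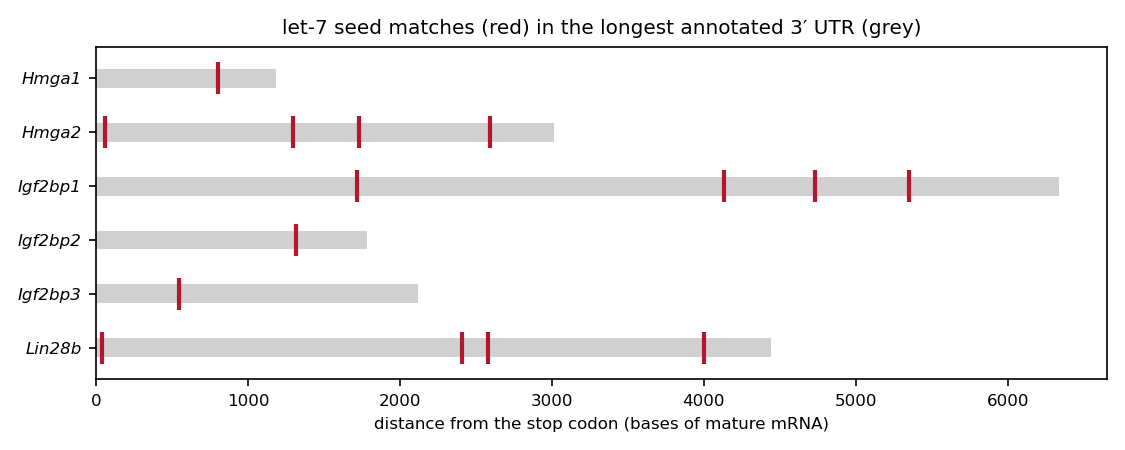
Position of each let-7 seed match (CTACCTC) along the longest annotated 3′ UTR of the 6 members, as distance in bases from the start of the UTR, with each line drawn to the UTR's length. Hmga2, Igf2bp1 and Lin28b hold 4 matches each and the other members 1 each.

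The bulk libraries held 25150265 to 35879777 estimated counts, the 10 highest genes took 10.9 to 13.1% of each, and duplicate libraries correlated at 0.992 to 0.9955 (log2 CPM, counts scaled to a fixed library total). Replicates were 2 labelled mice per genotype, so every difference between genotypes cannot be told apart from other differences between 2 pairs of animals. Rxra itself was 122 and 149 CPM in wild-type FBS libraries and 95.7 and 97.2 in those labelled cKO (log2 fold change −0.49, edgeR adjusted p = 0.00264). In atRA+PKCi it was 143 and 147 CPM against 145 and 148 (0.01, adjusted p = 0.927). A gene-level count does not separate deleted from retained exons, so Rxra did not check the labels in atRA+PKCi, and the libraries are called by their labels throughout. Keratinocyte markers (16182 to 36199 CPM in sum) outweighed 14 fibroblast markers (13.9 to 26.2 CPM, with Lum at 0 in all 8), and immune, endothelial and melanocyte markers stayed at or below 5.3 CPM in sum.

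The medium moved the HMGA genes and Lin28b in opposite directions in wild-type HFSCs. Hmga1 and Hmga2 were lower in atRA+PKCi than in FBS, Lin28b was higher, and the 3 Igf2bp genes did not pass the test. In all, 3 of the 6 members passed (adjusted p under 0.05), 1 higher and 2 lower, where 53.9% of all 15965 tested genes did (27.2% higher and 26.6% lower). The members' median log2 fold change was −0.15 against 0.03 over all genes.

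Hmga2 was 258 and 259 CPM in wild-type FBS libraries and 47.5 and 44.3 in atRA+PKCi. The groups lay far apart, and Hmga2 was 5.64-fold lower (log2 −2.49 ± 0.0855 (SE), n = 2 per group, edgeR adjusted p = 6.26e-08). Among the 9013 genes with a mean of at least 10 CPM, it was 254th from the most lowered. Of 11 tested fibroblast markers, 4 fell with it in wild-type cells (Pdgfra, Dcn, Prrx1 and Postn) and 2 rose (Twist1 and Twist2). Pdgfra, a fibroblast receptor, went from 4.91 and 5.44 CPM in FBS to 0.665 and 0.706 in atRA+PKCi (log2 −2.91, adjusted p = 1.70e-05), and the other 3 that fell were at or under 1.0044 CPM in wild-type libraries. The part of residual feeder or dermal cells in the Hmga2 values was not tested.

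Hmga1 was 328 and 303 CPM in FBS and 142 in both atRA+PKCi libraries, 2.23-fold lower (log2 −1.16 ± 0.0988, edgeR adjusted p = 1.70e-05). Its retrocopy Hmga1b, which is nearly identical in sequence, averaged 3.56 CPM in wild-type FBS cells and also fell (log2 −1.71, adjusted p = 0.00178). Reads shared between these copies may have been split, and how far this bears on the Hmga1 level was not tested. In bulk RNA, fewer cells of a type and less RNA per cell cannot be told apart.

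Lin28b, the let-7 blocker, went the other way, from 1.90 and 2.05 CPM in FBS (52 and 53 estimated counts) to 7.12 and 6.11 CPM in atRA+PKCi (222 and 193). The rise was 3.35-fold (log2 1.74 ± 0.186, adjusted p = 6.78e-05). Its paralogue Lin28a was listed at 0 in all 8 libraries.

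The RNA-binding IGF2BPs sat close together in the 2 media. Igf2bp2 was 152 and 149 CPM in FBS and 146 and 143 in atRA+PKCi (log2 −0.06, adjusted p = 0.386). Igf2bp1 was 4.93 and 4.44 CPM against 4.14 and 3.87 (−0.23, adjusted p = 0.148), and Igf2bp3 was 12.4 and 10.3 against 13.3 and 14.5 (0.29, adjusted p = 0.103). None of these 3 differences passed. Igf2bp1 depended on the scaling: with the authors' gene-wise factors as offsets, tried after seeing the data, its log2 fold change was −1.395 (adjusted p = 0.00298).

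**Figure D2:**
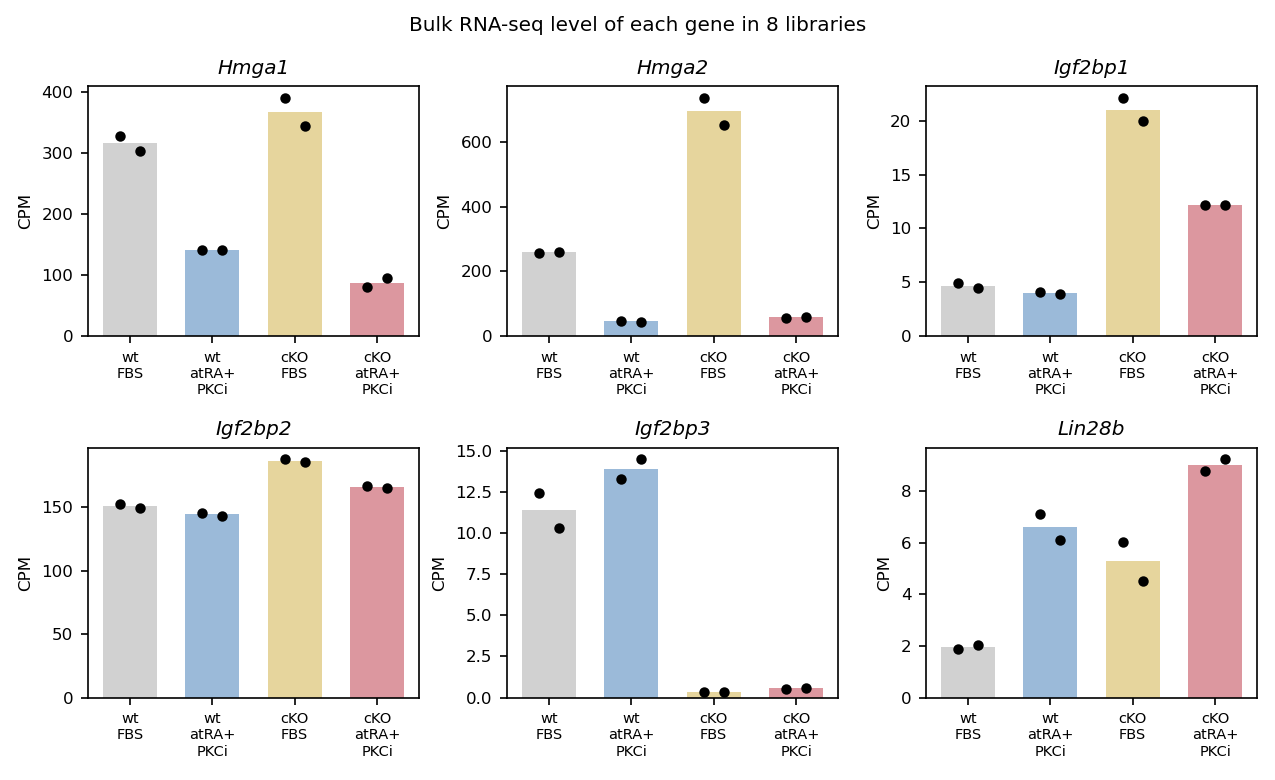
Level of each member in CPM by bulk group. Bars are the means of 2 libraries and points the libraries, each panel with its own axis from 0. Hmga2 is highest in the 2 cKO FBS libraries (736 and 653 CPM), and Igf2bp3 lies under 1 CPM in all 4 cKO libraries.

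In cells labelled Rxra cKO, Hmga1 and Hmga2 were again lower in atRA+PKCi and Lin28b again higher, and Igf2bp1 and Igf2bp2 were also lower. Here 5 of the 6 members passed, 1 higher and 4 lower, where 43% of all tested genes did (20.8% higher and 22.2% lower), with a median of −0.48 against 0.02 over all genes. Hmga2 went from 736 and 653 CPM to 56.8 and 60.5, which was 11.9-fold lower (log2 −3.57 ± 0.0884, adjusted p = 5.89e-08) and 50th from the most lowered gene. Hmga1 went from 390 and 345 CPM to 79.8 and 94.6, 4.22-fold lower (−2.08 ± 0.102, adjusted p = 1.36e-06). Both HMGA genes had their highest libraries in FBS and their groups did not overlap.

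Lin28b went from 6.04 and 4.53 CPM to 8.77 and 9.24 in the cKO cells, a 1.70-fold rise (log2 0.77 ± 0.169, adjusted p = 0.00616). Igf2bp1 went from 22.1 and 20.0 CPM to 12.2 in both libraries (−0.79 ± 0.105, adjusted p = 0.000429), a call lost with the gene-wise offsets (−0.67, adjusted p = 0.0621). Igf2bp2 was 188 and 186 CPM against 167 and 165, a small fall (−0.17 ± 0.0586, adjusted p = 0.0440). That call was lost in 13 of 16 other settings, and with the mouse as a block its adjusted p was 0.0621. Igf2bp3 was near its floor in these cells, at 0.360 and 0.356 CPM in FBS and 0.550 and 0.559 in atRA+PKCi, and did not pass (adjusted p = 0.181).

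Of the fibroblast markers in cKO-labelled cells, Pdgfra fell (−1.66, adjusted p = 0.000503) and Postn rose (1.65, adjusted p = 5.39e-05), and the other 9 tested did not pass. Cell-cycle genes moved beside the HMGA genes. In wild-type cells 8 of 16 listed cell-cycle genes fell and 2 rose with atRA+PKCi, and their summed level was 1349 to 1367 CPM in FBS and 1125 to 1163 in atRA+PKCi. In cKO cells 15 of 16 fell and none rose, and the sum went from 1284 to 1379 CPM in FBS to 667 to 689 in atRA+PKCi. The part of cell division in the HMGA values was not tested.

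**Figure D3:**
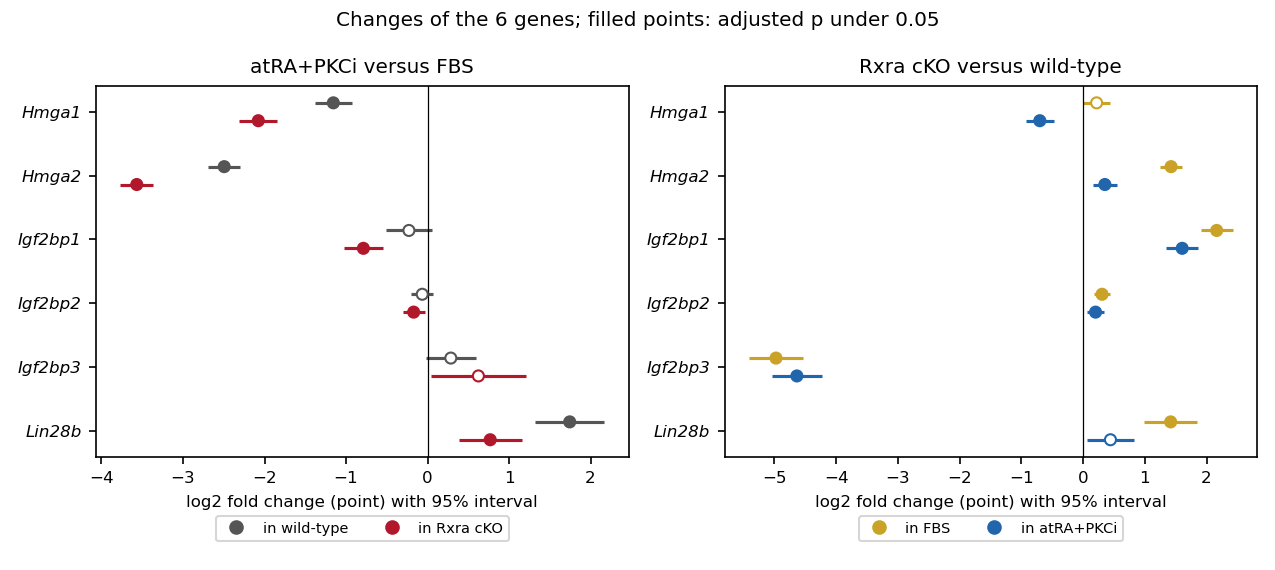
Fitted log2 fold change of each member in the bulk comparisons of medium and of genotype, with its 95% interval. The interaction is not drawn. Filled points passed an adjusted p of 0.05. Hmga1 and Hmga2 lie below 0 for both medium comparisons, Lin28b lies above 0, and Igf2bp3 lies near −5 for both genotype comparisons.

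Between genotypes Igf2bp3 was lower and Igf2bp1 higher in cKO-labelled cells in both media, and Hmga2 and Lin28b were higher in FBS. In FBS, 5 of 6 members passed, 4 higher and 1 lower in the libraries labelled cKO, where 42.8% of all tested genes passed (22.3% higher and 20.5% lower). In atRA+PKCi 5 of 6 also passed, 3 higher and 2 lower, against 43.2% of all genes (23% higher and 20.2% lower). The medium and genotype comparisons share libraries, so their values are set side by side only.

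Igf2bp3 showed the widest gap. It was 12.4 and 10.3 CPM in wild-type FBS libraries and 0.360 and 0.356 in those labelled cKO, which held 10 and 11 estimated counts. The level was 31.5-fold lower in FBS (log2 −4.98 ± 0.193, adjusted p = 5.68e-07) and 24.9-fold lower in atRA+PKCi (−4.64 ± 0.178, adjusted p = 3.57e-07). All 4 libraries labelled cKO held between 10 and 21 estimated counts for this gene, and no wild-type library was under 10 CPM. Of its 8 nearest tested neighbours on chromosome 6, looked up after these values were seen, 3 passed in FBS and 4 in atRA+PKCi, and none was lowered by as much in both media. Aoc1 was −6.45 in atRA+PKCi (adjusted p = 2.82e-06) but did not pass in FBS (2.35). Gpnmb was −0.60 and −1.46 and passed in both, and Tmem176a was 2.64 in FBS and did not pass in atRA+PKCi (0.14). Of the genes directly beside Igf2bp3, Malsu1 was −0.21 in FBS (not passed) and −0.32 in atRA+PKCi (adjusted p = 0.0444). Tra2a was 0.22 (adjusted p = 0.0319) and −0.16 (not passed).

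Igf2bp1 went the opposite way. It was 4.93 and 4.44 CPM in wild-type FBS libraries against 22.1 and 20.0 in the cKO-labelled ones, 4.48-fold higher (log2 2.16 ± 0.115, adjusted p = 2.87e-06) and the 96th most raised gene. In atRA+PKCi it was 3.04-fold higher (1.61 ± 0.115, adjusted p = 1.05e-05), and the gene-wise offsets raised this to 2.77 on the log2 scale. Igf2bp2, the most abundant of the 3, was 1.24-fold higher in FBS (0.31 ± 0.0588, adjusted p = 0.00305) and 0.20 higher on the log2 scale in atRA+PKCi (adjusted p = 0.0222). The latter call was lost in 6 of 15 other settings, among them leaving out any 1 of the 4 atRA+PKCi libraries (adjusted p = 0.0551 to 0.128). The 3 paralogues thus stood in different orders in the genotypes, with Igf2bp3 above Igf2bp1 in wild-type libraries and below it in cKO-labelled ones, also per kilobase of exon.

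Hmga2 was 2.69-fold higher in cKO-labelled cells in FBS (log2 1.43 ± 0.0808, adjusted p = 4.16e-06), with 736 and 653 CPM against 258 and 259. In atRA+PKCi the 4 libraries were closer, 56.8 and 60.5 against 47.5 and 44.3 CPM (0.35 ± 0.0833, adjusted p = 0.00844). That smaller difference missed the threshold without cKO replicate 2 (adjusted p = 0.0775) or wild-type replicate 2 (0.0671). Hmga1 did not pass in FBS (0.22, adjusted p = 0.102) and was 1.63-fold lower in cKO-labelled cells in atRA+PKCi (−0.70 ± 0.0992, adjusted p = 0.000551). Cell-cycle genes moved with it there, with 12 of 16 lower and none higher. Lin28b was 2.67-fold higher in FBS (1.42 ± 0.188, adjusted p = 0.000412) and 0.44 higher in atRA+PKCi, where it did not pass (adjusted p = 0.0594) but passed in 6 of 15 other settings (0.0269 to 0.0403).

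The effect of the medium differed between genotypes for 4 of 6 members, where 24.6% of all tested genes passed this test of the difference (11.3% above 0 and 13.3% below). For Hmga1 and Hmga2 the fall with atRA+PKCi was larger in cKO-labelled cells, by 0.92 ± 0.139 (adjusted p = 0.00179) and 1.07 ± 0.115 (adjusted p = 0.000308) on the log2 scale. Igf2bp1 also fell more there, by 0.56 ± 0.161 (adjusted p = 0.0356), but this call was lost in 10 of 15 other settings and turned in sign in 3 more. It missed the threshold with the mouse as a block (adjusted p = 0.0536) and without any 1 library (0.0666 to 0.140) other than cKO FBS replicate 2 and wild-type FBS replicate 1. The Lin28b rise was smaller in cKO-labelled cells by 0.98 ± 0.251 (adjusted p = 0.0224), a call also lost in 10 of 15 settings. These included the loss of any 1 of cKO FBS replicate 1, wild-type FBS replicate 1, wild-type atRA+PKCi replicate 1 and both cKO atRA+PKCi libraries (adjusted p = 0.0553 to 0.102). Igf2bp2 (0.11, adjusted p = 0.403) and Igf2bp3 (−0.34, adjusted p = 0.557) did not pass. Among the 16 cell-cycle genes, 12 fell more in cKO-labelled cells by the same test and none less.

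Per kilobase of exon, Hmga1 was the most abundant member in all 4 groups, at a mean of 148 (wild-type) and 173 (cKO) CPM per kb in FBS and 66.7 and 41.0 in atRA+PKCi. Hmga2 came second in FBS (38.2 and 103 CPM per kb, wild-type and cKO). In atRA+PKCi it was (6.78 and 8.66) behind Hmga1 and Igf2bp2 (19.5 and 22.4). The other members were at or under 2.17 CPM per kb in every group.

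Genes that act on or with the members were described from lists, whose counts stand against 27.2% of all tested genes higher and 26.6% lower with the medium in wild-type cells and 20.8% and 22.2% in cKO-labelled cells. Of 11 tested genes of LIN28 function and let-7 maturation, 6 rose and none fell with atRA+PKCi in wild-type cells. Among those at a mean of at least 10 CPM, Zcchc11 (Tut4) rose most (log2 1.19 ± 0.122, edgeR adjusted p = 5.38e-05). It is the terminal uridylyltransferase that LIN28 recruits to let-7 precursors. Xpo5, which exports the precursors (0.47), and Dicer1, which cuts them (0.42), came next. In cKO-labelled cells 1 of the 11 rose, Msi2 (0.29, adjusted p = 0.0139). The other 3 that rose in wild-type cells were Dgcr8, a partner of Drosha (0.42), and the Musashi RNA-binding genes Msi1 (2.59 ± 0.573) and Msi2 (0.29). Msi1 was near the floor, at 0.0365 to 0.193 CPM in wild-type FBS libraries and 0.641 to 0.760 in atRA+PKCi.

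Other let-7 targets did not move one way. Of 21 tested, 7 rose and 7 fell with the medium in wild-type cells, and 4 rose and 10 fell in cKO-labelled cells. Thbs1, a matrix glycoprotein, rose most in both (2.47 and 2.07 on the log2 scale), and Ccnd1, a G1 cyclin, rose in wild-type cells (0.91) while Irs2, an insulin and IGF receptor adaptor, fell (−1.06). The targets that fell as Hmga2 did were matched in number by those that rose in wild-type cells.

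Among 10 tested IGF signalling genes, 4 rose and 5 fell with the medium in wild-type cells, and 3 rose and 1 fell in cKO-labelled cells. Igfbp2, which binds IGFs outside the cell, fell by 2.35 in wild-type cells and rose by 2.93 in cKO-labelled ones (interaction −5.27 ± 0.192, adjusted p = 1.83e-06). Of 11 imprinted fetal growth genes, 4 rose and 4 fell in wild-type cells, and 4 rose and 2 fell in cKO-labelled ones. Cdkn1c, a cyclin-dependent kinase inhibitor, rose by 2.43 and 1.38. Of 9 other HMG proteins, 5 rose and 1 fell in wild-type cells and 3 rose and 4 fell in cKO-labelled cells, among them Hmgb2, a chromatin protein of dividing cells (−0.79, adjusted p = 0.000168, in cKO). Of 16 genes of the IGF2BP1 complex and of m6A methylation, 7 rose and 1 fell in wild-type cells, led by Mettl3, the m6A methyltransferase (0.83), and 3 rose and 1 fell in cKO-labelled cells.

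Across the 8 libraries, genes whose pattern was most like each member were ranked by Pearson's r of log2 CPM among 9012 genes, as a description over libraries that share 4 groups. Hmga1 was most like Cdca8, a chromosomal passenger protein of mitosis (r = 0.995), and Hmga2 most like Rbms1 (0.994), an RNA-binding protein. Igf2bp1 was most like Stk39 (0.995), Igf2bp2 most like Tarbp2 (0.993), Igf2bp3 most like Pkp4 (0.999) and Lin28b most like Chtop (0.996). Among the members themselves, Hmga1 and Hmga2 had r = 0.904, Igf2bp1 and Igf2bp2 0.985, and Igf2bp1 and Igf2bp3 −0.968.

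In anagen skin the members were mapped over cell classes rebuilt by clustering without the 6 genes. Of 16521 and 16068 barcodes in mouse 1 and mouse 2, 14458 and 13915 passed the filters on genes, UMIs and mitochondrial share, and 833 and 307 of these were marked as doublets and left out. The libraries shared 62 barcodes. Clustering gave 34 clusters, which were joined into 24 classes with at least 50 cells in each mouse. Names from markers needed at least 3 detected, a mean marker z of at least 1 and no second list within 0.25. Clusters failing these or further rules on leading genes, depth and relative score were named by leading genes. The cluster led by Pthlh and Krt14 scored 2.031 for outer root sheath and 1.934 for companion layer, and so stayed outside the outer root sheath-like class. Fibroblast-like (4703 and 4062 cells), immune-like, endothelial-like and melanocyte-like classes were present although the sort was set against CD140a, CD45, CD31 and CD117. Some fibroblast-like clusters came mostly from 1 mouse. Levels are CPM of the summed UMIs in each mouse, and shares of cells with a UMI follow depth as well as level. Ambient RNA, which comes from outside the cell, was not removed here, and its part in low levels was not tested. Over all classes, whole-sample UMIs for mouse 1 and mouse 2 were lowest for Igf2bp1 (25 and 34) and highest for Igf2bp2 (1686 and 2413).

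Hmga1 was highest in the cells that build the hair shaft and its sheath. It was 14.1 and 17.2 CPM in inner root sheath (IRS)-like cells and 14.6 and 16.3 in hair matrix-like cells, 2 classes whose mice overlapped. A UMI was seen in 13.3% and 18.3% of IRS-like cells, and in 3.79% and 3.87% after each cell was thinned to 3000 UMIs. Outer root sheath (ORS)-like cells, the compartment that holds the HFSCs, had 6.69 and 7.27 CPM, and fibroblast-like cells 1.26 and 1.18. How reads shared with Hmga1b bear on these Hmga1 values was not tested. The cell-cycle list summed to 2939 and 2637 CPM in hair matrix-like cells and 2544 and 2459 in IRS-like cells, against 1154 and 1095 in ORS-like and 238 and 306 in fibroblast-like cells.

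Hmga2 was sparse in skin outside the melanocyte-like cells. It was 27.2 CPM in mouse 1 (24 UMIs, exact 95% Poisson interval 17.4 to 40.5) and 33.4 in mouse 2 (38 UMIs, 23.7 to 45.9). This class of 98 and 90 cells was led by Mlana, Dct and Pmel. The Hmga2 UMIs came from a minority of its cells, 16.3% and 13.3%. The mean of 30.3 CPM became 19.02 when only cells with at least 1000 genes and under 5% mitochondrial UMIs were kept. The next class, a cluster led by Il17b, had 7.67 and 3.19 CPM, below both melanocyte-like values. ORS-like cells held 2 and 13 UMIs (0.257 and 1.02 CPM), with a UMI in 0.209% and 0.986% of cells. Fibroblast-like cells, at 0.512 and 0.641 CPM with a UMI in 0.447% and 0.788%, were within that range, so the ORS-like level could not be told from background. Median depths were 7592 and 9197 UMIs per ORS-like cell and 9561 and 12224 per melanocyte-like cell. Suprabasal-like cells held 0 UMIs in 299 and 302 cells, where a count of 0, by a floor of 3 counts in each mouse, allows up to 1.23 and 0.877 CPM. Intervals and limits cover counting error only.

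The IGF2BPs each had another leading class. Igf2bp2 was highest in the dermis, at 32.8 and 28.4 CPM in dermal papilla-like cells, above the 23.4 and 26.96 of a cluster led by Adam12 and Fgf10 and the 22.4 and 24.7 of fibroblast-like cells, which overlapped each other. ORS-like cells, at 3.47 and 4.06 CPM, ranked 20th of 24 classes. Igf2bp3 was highest in immune-like cells (24.9 and 39.7 CPM) and in a cluster led by S100a9 (34.5 and 21.8), which overlapped. It was 8.24 and 11.3 CPM in ORS-like cells, against 7.89 and 7.82 in fibroblast-like cells. Igf2bp1 was at 0 in both mice in 13 of 24 classes and reached 4.60 and 3.21 CPM (5 and 7 UMIs) in a cluster led by Adamts18 and Col11a1. ORS-like cells ranked 4th, at 0.772 and 1.02 CPM from 6 and 13 UMIs.

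Lin28b stayed at or under 3 CPM on average in every class. Its highest class, endothelial-like, rested on 1 and 3 UMIs. ORS-like cells had 2.70 and 1.56 CPM, hair matrix-like cells 1.39 and 1.57, and fibroblast-like cells 1.37 and 0.902. Neighbouring classes in this order overlapped.

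**Figure D4:**
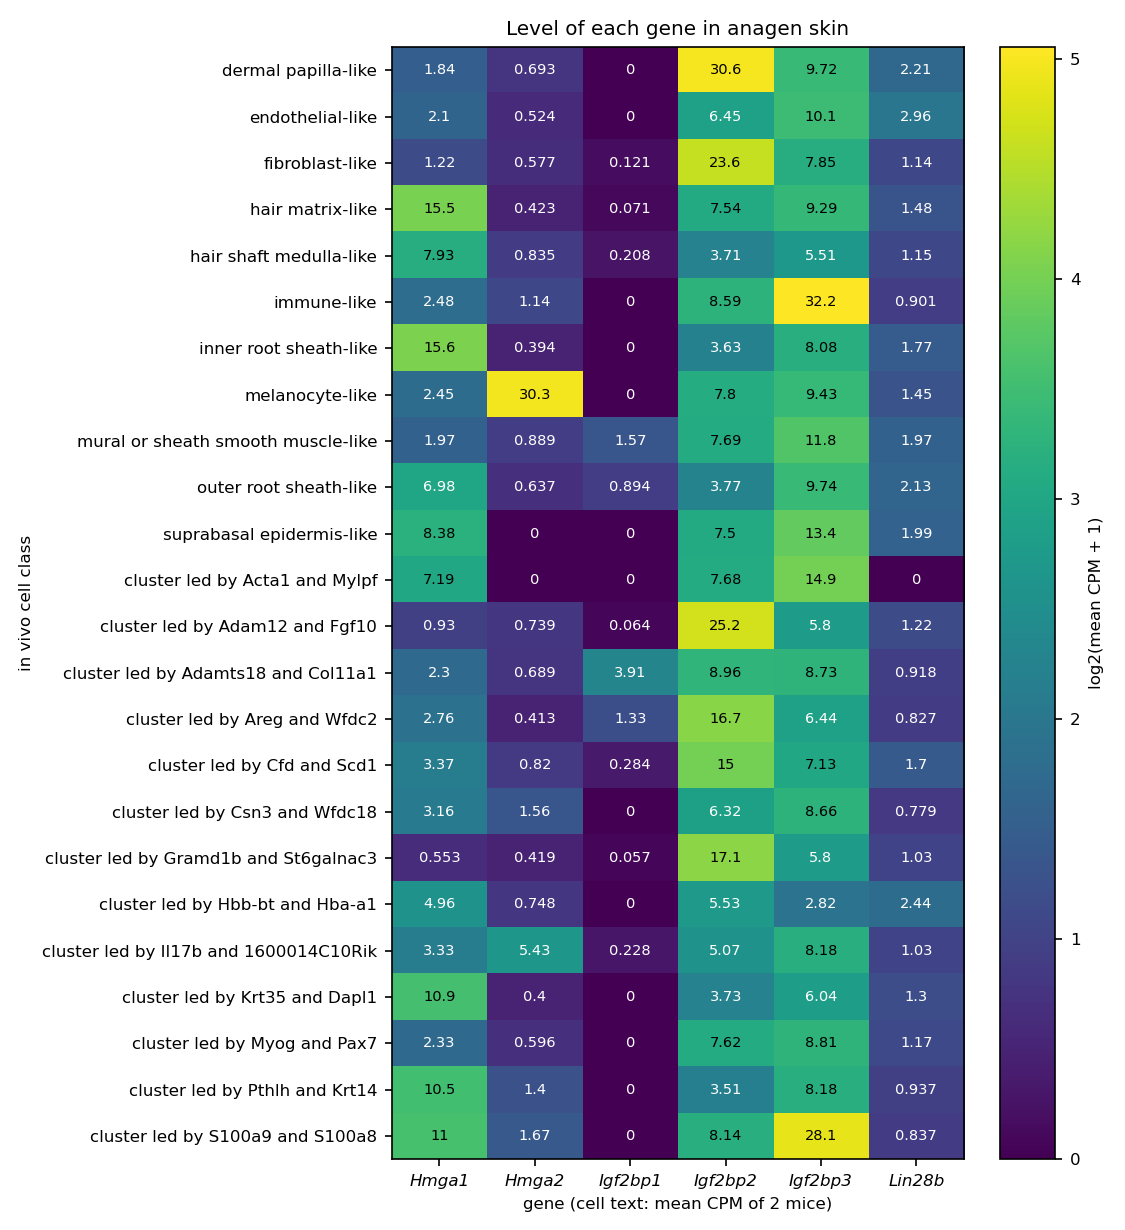
Mean level of each member in the 24 cell classes of anagen back skin, as log2(CPM + 1), with the mean CPM of 2 mice written in each cell. Hmga2 stands out in 1 class, the melanocyte-like cells, while Igf2bp2 is high across dermal classes and Hmga1 across IRS-like and hair matrix-like cells.

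The genes most like each member over the 24 classes, by Pearson's r of log2(CPM + 1) among 12063 genes, differed for each member. Hmga1 was nearest Gcat (r = 0.930) and Fabp5 (0.908), and Hmga2 was nearest the predicted genes Gm10863 and Gm10701 and the melanosomal exchanger Slc24a5 (0.874). Igf2bp1 was nearest Susd5 (0.784) and Acan (0.751), Igf2bp2 nearest the secreted Wnt modulator Sfrp2 (0.868), and Igf2bp3 nearest Rgs1 (0.838), a regulator of G-protein signalling in leukocytes. Lin28b reached no more than 0.578. Hmga1 and Hmga2, whose bulk levels moved together, had r = −0.15 over these classes.

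Pooled over media, the cultured HFSCs of the same mice carried a different set of members from the ORS-like cells in skin. Hmga2, Igf2bp2, Lin28b and Igf2bp1 were higher in culture, and Hmga1 and Igf2bp3 did not pass the test. The matrices held 449 and 208 barcodes, of which 222 and 78 singly tagged cells passed the filters, with medians of 29434.5 and 21523 UMIs. The comparison summed all tagged cells of each mouse and set them against its ORS-like cells (958 and 1319 cells), so the media were pooled. Bone morphogenetic protein (BMP) medium gave 113 and 13 of these cells, and BMP with R-spondin 92 and 27. A retinoic acid receptor inhibitor added to the latter gave 5 and 21, and atRA+PKCi alone 2 and 1. The culture values thus come mainly from BMP-treated cells. The paper placed cells given R-spondin and BMPs with the main lineages of mature follicles. The skin was sorted on other markers, and medium, culture and processing cannot be told apart.

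Hmga2 was 0.228 and 0.864 CPM in ORS-like cells and 187 and 162 in culture, both after TMM scaling. The difference was 8.11 on the log2 scale (SE 0.332, 95% interval 7.42 to 8.79, edgeR adjusted p = 3.24e-15), resting on 2 and 13 UMIs in skin. A UMI was seen in 166 of 222 and 52 of 78 cultured cells. Leaving out 1 library at a time gave 7.62 to 9.44.

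Igf2bp2 was 3.08 and 3.46 CPM in ORS-like cells and 85.9 and 112 in culture, 29.5-fold higher (log2 4.88 ± 0.246, adjusted p = 5.67e-14). Lin28b was 2.40 and 1.33 against 21.3 and 25.9 CPM, 13.0-fold higher (3.70 ± 0.316, adjusted p = 5.48e-10). Igf2bp1 was 0.685 and 0.864 against 4.68 and 4.40 CPM, 5.70-fold higher (2.51 ± 0.473, adjusted p = 8.24e-05). In each of these the mice of the 2 sources did not overlap. In total 4 of 6 members passed, all higher, where 58.2% of 13554 tested genes passed with 26.2% higher and 32% lower. The members' median was 3.11 against −0.12 over all genes.

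Hmga1 was 5.94 and 6.18 CPM in skin and 5.59 and 3.43 in culture (log2 −0.32, edgeR adjusted p = 0.445). The bulk wild-type HFSCs averaged 316 CPM of Hmga1 in FBS and 142 in atRA+PKCi, far above the single-cell culture values. The part of reads shared with Hmga1b in this gap was not tested. Igf2bp3 was 7.31 and 9.57 CPM in skin against 7.03 and 6.85 in culture (−0.29, adjusted p = 0.430). Cell-cycle genes fell in culture, 16 of 16, from sums of 1024 and 932 CPM to 177 and 242. The higher Hmga2 stood beside a lower cell-cycle sum here and beside a higher one in the serum-grown bulk cells. These are unlike comparisons, and the part of cell division in the Hmga2 values was not tested.

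The other lists moved less evenly in this comparison. Of 22 other let-7 targets, 5 rose and 8 fell, with Ccnd1 at 2.34 and Thbs1 at −2.76 on the log2 scale. Of 11 LIN28 and let-7 maturation genes none rose and 3 fell, with Tut4 at −1.13. Of 9 other HMG proteins 1 rose and 7 fell, of 12 IGF signalling genes 1 rose and 6 fell, of 12 imprinted genes 2 rose and 8 fell, and of 16 IGF2BP1-complex and m6A genes 1 rose and 5 fell. Keratinocyte markers rose from 2965 and 2780 CPM to 19652 and 16898 in sum. Fibroblast markers fell from 2116 and 3121 to 33.7 and 27.4, with 13 of 14 lower. In ORS-like cells their sum was thus close to that of the keratinocyte markers. The paper removed ambient RNA with SoupX, but no such correction was made here. The part of ambient RNA in these differences was not tested. Melanocyte markers went from 42.8 and 59.6 CPM to 3.24 and 0.489. The part of melanocytes in the Hmga2 values was not tested.

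**Figure D5:**
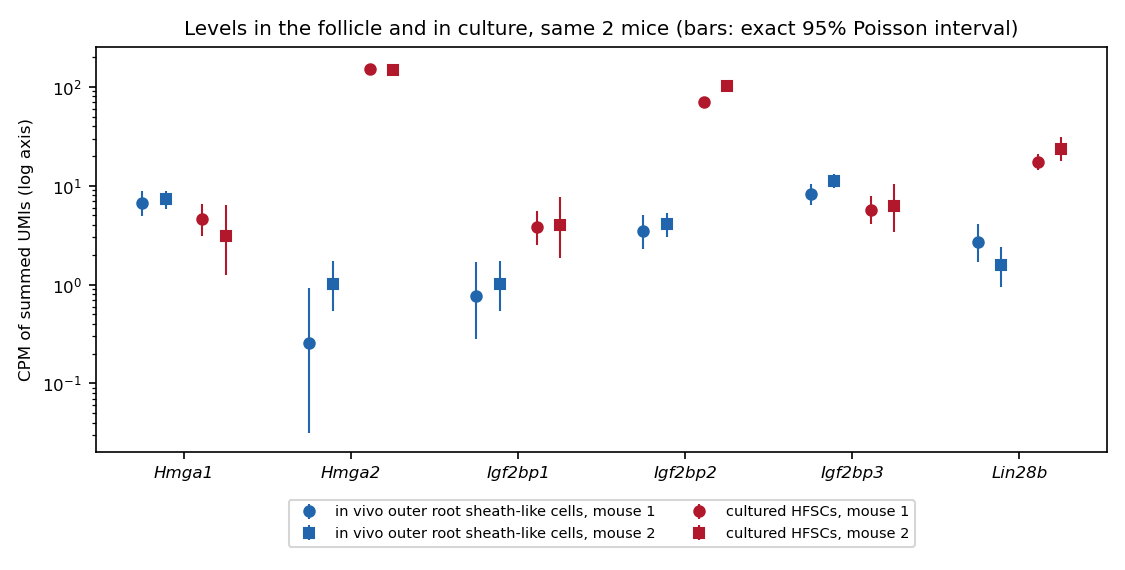
Level of each member in CPM (log axis) in ORS-like cells of skin and in cultured HFSCs of each mouse. All media are pooled, and bars are exact 95% Poisson intervals for counting error. Hmga2, Igf2bp2, Lin28b and Igf2bp1 lie higher in culture in both mice, while the intervals of Hmga1 and Igf2bp3 overlap.

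Within culture, 3 comparisons of media could be tested, each with 1 summed profile per mouse. By the study's methods all media but FBS and B-27 also held atRA+PKCi, so the comparison of bone morphogenetic protein (BMP2/4) with B-27 cultures changed more than BMP. Igf2bp2 was 191 CPM in both mice in B-27 (5 and 10 cells) and 60.6 and 102 in BMP2/4 (113 and 13 cells). It was lower in BMP2/4 by 1.19 on the log2 scale (95% interval −1.88 to −0.50, adjusted p = 0.00929), the 1 called of the 2 members tested, where 29.6% of 5071 genes passed (10.1% higher and 19.6% lower). The call was lost when rarely detected genes were kept (adjusted p = 0.0594), with DESeq2 (0.0799), without BMP replicate 1 (0.439) and without BMP replicate 2 (0.0813). Hmga2 was 386 and 109 CPM in B-27 and 125 and 288 in BMP2/4, overlapping groups that did not differ by the test (−0.17, interval −1.06 to 0.73).

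Adding R-spondin, a Wnt pathway agonist, to BMP2/4 gave no call among the 3 members tested. In edgeR 7 of 8948 genes (0.0782%; 0.0671% higher and 0.0112% lower) passed, and 358 had an unadjusted p under 0.05, none of them a member. Hmga2 was 146 and 125 CPM in the combined cultures (92 and 27 cells), a difference of −0.53 (95% interval −1.17 to 0.11). Igf2bp2 differed by 0.21 (−0.37 to 0.79) and Lin28b by −0.22 (−1.01 to 0.57). With a retinoic acid receptor inhibitor (RARi) added to these, edgeR passed 0 of 6767 genes (0%), DESeq2 passed 0, and 165 had an unadjusted p under 0.05. Hmga2 differed by −0.48 (−1.78 to 0.83), Igf2bp2 by −0.29 (−1.51 to 0.94) and Lin28b by −0.62 (−2.02 to 0.79). These intervals still allow changes of more than 1 on the log2 scale for Hmga2 in both comparisons.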

How the data were processed

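For bulk RNA-seq the authors deposited gene-level estimated counts from Salmon 1.4.0, mapped to mm10 and summed per gene. They also deposited a table of size-normalized counts (unit signal), used here for gene-wise scaling factors and for the limma runs. For scRNA-seq the authors deposited UMI counts from Cell Ranger and hashtag counts. ATAC-seq and CUT&RUN files were not used here. Estimated counts were rounded to whole numbers, filtered with filterByExpr (15965 genes kept), TMM-scaled and fitted with edgeR 4.0.16 quasi-likelihood on 4 group means, with Benjamini-Hochberg adjustment over all tested genes and a threshold of 0.05. Cells with at least 500 genes, 1000 UMIs and at most 10% mitochondrial UMIs were kept, doublets marked with Scrublet, and clusters made with scanpy 1.11.5 (2000 variable genes without the members, 30 components, 15 neighbours, resolution 1). Hashtags were called with Seurat 5.3.0 (quantile 0.99), and doubly tagged cells left out. UMIs were summed per mouse and class or medium with at least 5 cells and tested as above. The members and lists were chosen with earlier results of these data known, and the margins of the cluster naming rule were set after seeing the clusters. Named genes were the 6 members, Rxra and the 3 genes most like each member. From each list, up to 3 called genes with the largest change at a mean of at least 10 CPM were named. Some others, among them Msi1, the fibroblast markers and the Igf2bp3 neighbours, were named outside these rules. The labels pair FBS and atRA+PKCi libraries by mouse. Deviations from group means correlated at 0.112 in wild-type and −0.00219 in cKO pairs. The fits were tested on simulated data. P-values measure the spread between 2 mice per genotype.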

Additional observations from a re-analysis of the deposited data

Results flagged for a closer look

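For 4 members the effect of atRA+PKCi against FBS differed between wild-type and cKO-labelled HFSCs by a test of the difference itself (edgeR interaction term). On the log2 scale the wild-type effect minus the cKO effect was 0.92 for Hmga1, 1.07 for Hmga2, 0.56 for Igf2bp1 and 0.98 for Lin28b. All 4 values were positive, where 11.3% of all tested genes passed in that direction. For Hmga1, Hmga2 and Igf2bp1 this was a larger fall in cKO-labelled cells, and for Lin28b a smaller rise. The Igf2bp1 call was lost in 10 of 15 other settings and turned in sign in 3 more. The Lin28b call was lost in 10 of 15. No sample could be tested as standing apart from its group, since each group had 2 libraries.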

How the results depend on the processing

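Each bulk comparison was repeated with DESeq2, limma with 2 pseudocounts, no low-count filter and each library left out. The authors' gene-wise scaling as offsets was added after seeing the data. The 4 compared libraries alone were fitted for the medium and genotype comparisons, not for the interaction. A mouse block was fitted for the medium comparisons and the interaction, not between genotypes, whose mice differ. In wild-type cells the medium results of the members kept direction and call in 93 of 96 cases, and 3 gained a call. In FBS the genotype results kept both in 89 of 90, and 1 lost its call. Counts of called members moved by over 1.5 times as follows. With an adjusted p under 0.01 and a log2 change over 1, the cKO medium comparison called 2, the genotype comparison in atRA+PKCi 2 and the interaction 1. With limma (pseudocounts 1 and 0.5) the cKO medium comparison called 3 and the interaction 2, with the offsets 3 and 2, and DESeq2 called 2 for the interaction. Leaving out 1 library gave 4 to 5 for the cKO medium comparison, 3 to 6 for genotype in atRA+PKCi (3 without replicate 2 of either genotype) and 2 to 4 for the interaction (2 without cKO FBS replicate 1, either cKO atRA+PKCi replicate or wild-type atRA+PKCi replicate 1). For BMP2/4 against B-27 it gave 0 to 1, with 0 also under no filter and DESeq2. The mouse block (pairing from the labels) took the calls of Igf2bp2 for the cKO medium (adjusted p = 0.0621) and Igf2bp1 for the interaction (0.0536), and changed no other member's call. Signs turned for Igf2bp3 in the cKO medium comparison (−0.0707 and −0.0680 with limma, −0.0055 with offsets), for the Igf2bp1 interaction (−0.738, −0.744 and −0.729) and for the Igf2bp3 interaction (0.272, 0.270 and 0.197). In culture they turned for Hmga2 in BMP2/4 against B-27 (0.86 without B-27 replicate 1, 0.37 without BMP replicate 1, range over libraries left out −0.72 to 0.86). In Rspo+BMP against BMP they turned for Hmga2 (0.054 with no mitochondrial limit), Igf2bp2 (−0.11 without BMP replicate 1, −0.05 without Rspo+BMP replicate 2, highest 0.49) and Lin28b (0.38 without Rspo+BMP replicate 1, lowest −0.68). With RARi they turned for Igf2bp2 (0.044 with a 70% hashtag rule) and Hmga2 (0.92 with no mitochondrial limit), and against ORS-like cells for Igf2bp3 (0.16 with no mitochondrial limit). The cause was not tested. Of these, the Igf2bp1 interaction had passed as reported, and none passed after the sign turned.

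In skin, thinning to 3000 UMIs per cell lowered the share of cells with a UMI to 3.83% for Hmga1 in IRS-like cells (15.8% unthinned), 6.80% for Hmga2 in melanocyte-like cells (14.8%), 1.14% for Igf2bp1 in the Adamts18 cluster (3.11%), 7.35% for Igf2bp2 in dermal papilla-like cells (13.3%) and 8.59% for Igf2bp3 in immune-like cells (14.5%), by construction of fewer UMIs. With doublets kept, Hmga1 in ORS-like cells was 6.51 CPM (6.98 as reported), Igf2bp2 27.5 in dermal papilla-like (30.6) and 4.32 in ORS-like cells (3.77), and Lin28b 4.63 in endothelial-like cells (2.96). With stricter cells, Hmga2 was 19.02 in melanocyte-like cells, Igf2bp2 4.22 in ORS-like cells and Lin28b 3.76 in endothelial-like cells. Over all genes, the strict threshold called 2960, 1858, 1761, 2081 and 1134 genes in the 5 bulk comparisons (8599, 6861, 6840, 6895 and 3924 as reported). Without cKO atRA+PKCi replicate 1 the cKO medium comparison called 4543 and the interaction 2458, and without replicate 2 the interaction 2392. BMP2/4 against B-27 called 788 with DESeq2 and 464 to 1919 leaving out 1 library (1503 as reported), Rspo+BMP against BMP 4 (DESeq2) to 54 (7), and RARi 8 with no filter, 42 without RARi replicate 1 and 1529 without RARi replicate 2 (0). Depth limits Igf2bp1 (25 and 34 UMIs in a whole skin library), Hmga2 (99 and 139) and Lin28b (185 and 197) most.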

Other observations

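Some cultured cells carried tags of media for which no comparison was made. With R-spondin alone (5 and 6 cells), Hmga2 was 584 CPM in mouse 1 (80 UMIs) and 138 in mouse 2 (20 UMIs), and Igf2bp2 was 124 and 48.2. In atRA+PKCi alone (2 cells and 1 cell), Hmga2 was 389 and 68.0 CPM from 29 and 3 UMIs, and Igf2bp1 was 53.7 and 0 from 4 and 0 UMIs. No cell kept carried the FBS tag, so the serum comparison of the bulk libraries could not be set beside single cells.

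The authors' normalized counts differed from the deposited counts by a factor that varied by gene, which for Igf2bp1 ranged 2.997-fold over the 8 libraries, against 1.095-fold for the median gene. Igf2bp1 stood at the 97.28th percentile of genes and Igf2bp3, with 2.702-fold, at the 96.55th. Under these factors Igf2bp1 fell by 1.395 with the medium in wild-type cells (adjusted p = 0.00298) and was 0.667 lower in cKO-labelled ones, which did not pass (adjusted p = 0.0621).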
